A study of Mus musculus with 12 samples.

Results

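The 37 genes described here encode the subunits of the Polycomb repressive complexes PRC1 and PRC2 in the mouse. They were selected by name, from the known composition of the complexes, and 36 of the 37 are among the 20409 genes of the deposited screen tables. The remaining gene, Epop, is annotated with a single exon and has no downstream exon that a splice donor could reach. Of the 36, 6 encode core PRC2 subunits, 5 accessory PRC2 subunits, 2 the RING subunits shared by all PRC1 forms, 10 subunits of canonical PRC1 and 13 subunits of variant PRC1.

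Polycomb complexes keep developmental genes silent. PRC2 methylates lysine 27 of histone H3, and its accessory subunits guide it to CpG islands. PRC1 ubiquitinates histone H2A through a RING subunit paired with a PCGF protein. In canonical PRC1 a CBX protein reads the PRC2 mark and a polyhomeotic (PHC) subunit compacts chromatin, whereas in variant PRC1 RYBP or YAF2 takes the place of CBX and subunits such as KDM2B, L3MBTL2, MGA or E2F6 bring the complex to DNA. In embryonic stem cells both complexes occupy the promoters of lineage genes.

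The 12 libraries come from ORFtag screens in diploid mouse embryonic stem cells of the AN3-12 line (AN3-128 in the labels), in which a retroviral cassette inserts at random and splices a tag onto the next downstream exon of a gene, so that an endogenous protein carries the tag. All groups are otherwise wild type, and each screen used a single clonal reporter line. In the repressor screen the tag was the DNA-binding protein TetR, the reporter held TetO sites between a BFP gene and a PGK promoter that drives Puro-IRES-GFP at a chromosome 15 locus, and GFP-negative cells were sorted. The activator screen used the same tag with TetO sites before the MYLPF promoter at that locus, and GFP-positive cells were sorted. In the posttranscriptional gene regulation (PTGR) screen the tag was the λN peptide, the line also expressed CreERT2, its reporter carried BoxB hairpins after GFP at a random locus, and cells with low GFP, whose GFP returned once Cre had removed the hairpins, were sorted. Each screen has 2 sorted and 2 unsorted libraries, the latter from transduced, drug-selected cells before sorting, and the 6 unsorted libraries together form the background. Sites of insertion were read by inverse PCR and sequencing, and distinct positions are counted, not reads.

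An insertion was counted for a gene when it lay on that gene's strand within 200 kb upstream of an exon other than the first. The sorted libraries held 14705 to 60980 such insertions and the unsorted ones 54088 to 233799, so that the background pool held 1022126. The 2 sorted repressor libraries were not fully separate. They shared 4892 positions, 26.0% of the smaller library, against 402 shared positions (2.26%) in the sorted activator pair and 470 (0.591%) in the sorted PTGR pair. The composition of the pools also differed. Over the 2986 genes with at least 100 unsorted insertions, the median log2 ratio of the sorted to the background share was -1.13 in the repressor screen, -0.54 in the activator screen and -0.17 in the PTGR screen, and values below 0 have to be read against these shifts.

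The junctions that most sorted repressor insertions at the 7 enriched Polycomb genes would use are shown because they define the fused part of each protein. Each is 30 bases of the GRCm38 reference on the strand of the gene, with the last 20 bases of the intron in lower case and the first 10 bases of the exon, the first bases fused to the tag, in capitals. The 9 acceptors of the 7 enriched genes with at least 10 sorted insertions are given, and 9 of 9 end in the AG of a splice acceptor.
Kdm2b exon 2: ctctggttgggtccccgcagCGTGCGATTG
Kdm2b exon 12: gatcctttgtttggccacagAATGTACTGA
Rybp exon 2: ggttctccactcctgggaagGCCAAAAAGA
Phc1 upstream exon 2: cttttactgattctgtctagGGCTTGAGTC
Phc1 downstream exon 2: tactgtctcctgtcttctagGCTCTGCAAG
Cbx7 exon 2: ctcctttctttttttcacagGGCAAAGTTG
Pcgf6 exon 2: ggttactgttgcacttacagCGCCTGATAA
Bcor exon 2: ccctttctttttttaaacagACTAGACGCT
L3mbtl2 exon 2: tcttgtcgttttcccactagGAGGCGCCAT

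The Kdm2b acceptors lie on the minus strand at chr5:122987797-122987826 and chr5:122921462-122921491. The Rybp acceptor (chr6:100286599-100286628) and both Phc1 acceptors (chr6:122337006-122337035 and chr6:122335074-122335103) are also on the minus strand, as are those of Cbx7 (chr15:79930620-79930649), Pcgf6 (chr19:47049080-47049109) and Bcor (chrX:12061637-12061666). The L3mbtl2 acceptor lies on the plus strand at chr15:81667139-81667168. All 6166 insertions counted for the members were assigned to an exon start that the GENCODE vM21 annotation also lists as non-first.

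Sorting for loss of GFP in the repressor screen enriched insertions at 7 Polycomb genes, all of PRC1. They were Cbx7 and Phc1 of canonical PRC1 and Pcgf6, Rybp, Bcor, Kdm2b and L3mbtl2 of variant PRC1. A gene was called enriched when a one-tailed Fisher's exact test of summed sorted against background insertions gave an adjusted p below 0.001 with a log2 odds ratio of at least 1 and at least 3 sorted insertions. The 7 are 7 of 36 members listed, against 192 of all 20409 genes (0.941%). They are 7 of the 12 members with 3 or more sorted insertions, against 8.18% of the 2346 genes that reached this number. That filter uses the same sorted counts as the call, and 3 of the 7 (Pcgf6, Bcor and L3mbtl2) had an expected count below 3. The share of 12 is therefore not separate support. Among the 18 members with 50 or more unsorted insertions, a property that does not depend on sorting, 5 were enriched, against 2.25% of 5254 genes so covered. In the activator screen the Fisher test called 0 of 36 members enriched, where 132 genes (0.647% of those listed and 4.64% of the 2842 tested) were, and 0 of 14 tested members had an unadjusted p below 0.05, against 9.68% of the tested genes. In the PTGR screen it called 0 of 36, where 62 genes (0.304% of those listed and 0.666% of the 9303 tested) were, and 5 of 28 tested members (17.9%) had an unadjusted Fisher p below 0.05, against 10.6% of the tested genes.

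**Figure D1:**
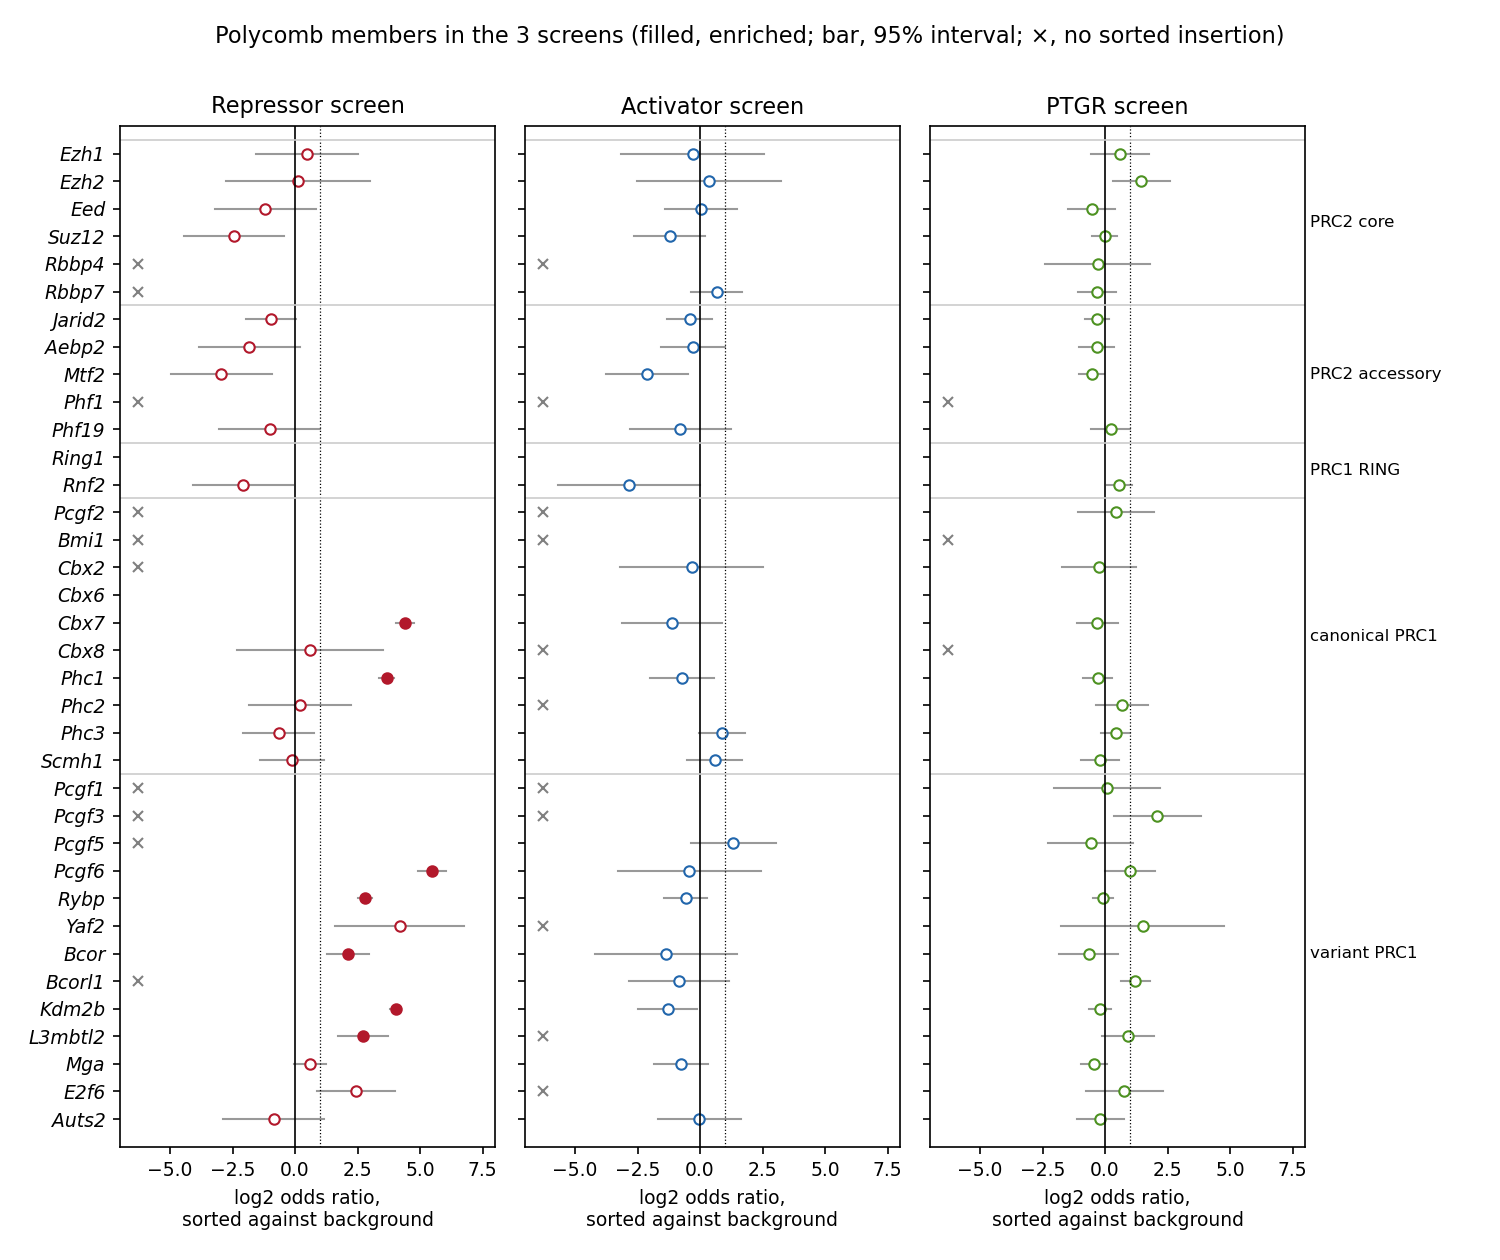
Enrichment of each member, as the log2 odds ratio between sorted and background pools (x axis), with members on the y axis by complex and a panel for each of the 3 screens, bars for the 95% interval, filled points for enriched members and crosses for members with no sorted insertion. Filled points appear only in the repressor panel, at 2 canonical and 5 variant PRC1 genes; Ring1 and Cbx6 had no unsorted insertion and are not drawn.

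Summed over each list of subunits, sorted repressor insertions were high for canonical and variant PRC1 and low for PRC2 and the RING genes. Variant PRC1 genes took 157 and 122 of every 10000 insertions in the sorted repressor libraries and 21.3 and 21.1 in the unsorted libraries of that screen. Canonical PRC1 genes took 61.5 and 67.7 per 10000 in the sorted libraries against 8.89 and 7.86 in the unsorted ones. For both PRC1 lists the sorted repressor libraries lay above all 10 others. PRC2 genes took 5.84 and 5.26 per 10000 in the sorted repressor libraries against 17.3 and 16.3 in the unsorted ones, and these were the lowest values of the 12 libraries. The RING genes took 0.898 and 0 per 10000 in the sorted repressor libraries against 2.11 ± 0.65 (SD, n = 6) in the background. They were as low in the sorted activator libraries, at 0 and 0.680 per 10000. Without the 7 enriched genes, the remaining canonical members took 3.32 ± 0.89 (SD, n = 2) per 10000 in the sorted repressor libraries against 4.44 ± 0.42 (SD, n = 6) in the background, and the remaining variant members 7.66 ± 0.60 (SD, n = 2) against 6.56 ± 0.54 (SD, n = 6).

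**Figure D2:**
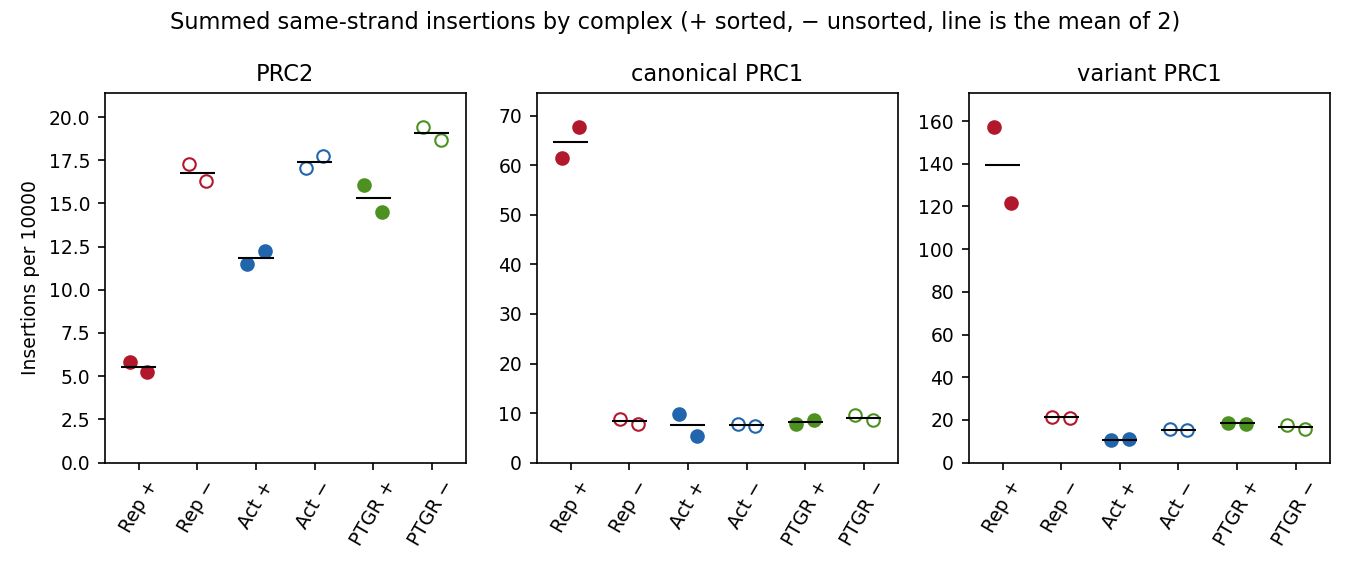
Insertions per 10000 (y axis) summed over the PRC2, canonical PRC1 and variant PRC1 genes in each of the 12 libraries (points), with filled points for sorted and open points for unsorted libraries and a line at the mean of 2. The sorted repressor libraries stand at 61.5 and 67.7 for canonical PRC1 and at 157 and 122 for variant PRC1, above all others, and lowest for PRC2.

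Cbx7 encodes the CBX subunit that reads H3K27 methylation in embryonic stem cell PRC1. It received 70 and 36 insertions in the sorted repressor libraries, 35 and 18 in the unsorted libraries of that screen, and 138 over the background. Per 10000 insertions these are 31.4 and 23.7 after sorting, while the 6 unsorted libraries ranged from 0.570 to 2.01. The log2 odds ratio was 4.39 ± 0.19 (SE; adjusted p = 6.91e-84, Fisher's exact test) and edgeR's quasi-likelihood test over the 4 repressor libraries gave a log2 fold change of 4.52 (adjusted p = 1.83e-54). The other CBX genes gave little signal. Cbx2 had 0 sorted repressor insertions for 40 in the background, Cbx8 had 1 for 18 and Cbx6 had no insertion in any unsorted library.

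Phc1, a polyhomeotic subunit whose SAM domain self-associates, received 61 insertions in each sorted repressor library, with 45 and 46 in the unsorted pair and 263 over the background. These correspond to 27.4 and 40.1 per 10000 after sorting against 1.88 to 3.33 in the unsorted libraries. Its log2 odds ratio was 3.67 ± 0.16 (SE; adjusted p = 2.71e-77, Fisher's exact test) and the edgeR log2 fold change was 3.95 (adjusted p = 1.97e-49). Its paralogues were not enriched. Phc2 had 1 and 1 sorted insertions for 48 in the background and Phc3 had 1 and 3 for 172 (log2 odds ratio -0.66 ± 0.73, SE). Scmh1, a further canonical subunit with a SAM domain, had 3 and 2 sorted insertions for 148 in the background (-0.12 ± 0.66, SE), and Pcgf2 and Bmi1, the PCGF proteins of canonical PRC1, had 0 for 25 and 0 for 4.

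In variant PRC1, the most insertions fell at Kdm2b, which encodes the CxxC protein that brings the PCGF1 complex to unmethylated CpG islands. It received 186 and 93 insertions in the sorted repressor libraries and 113 and 112 in the unsorted ones, with 470 in the background. At 83.5 and 61.2 per 10000 the sorted libraries stood far above the range of 3.48 to 6.48 in the unsorted ones. The log2 odds ratio was 4.03 ± 0.11 (SE; adjusted p = 4.02e-198, Fisher's exact test) and the edgeR log2 fold change 3.82 (adjusted p = 3.46e-44). Bcor, a corepressor of the same PCGF1 complex, differed between the sorted libraries. It had 11 and 2 sorted insertions against 22 and 13 unsorted ones and 81 in the background. The first library, at 4.94 per 10000, lay well above the unsorted maximum of 1.26, while the second, at 1.32, lay just above it. Its log2 odds ratio was 2.13 ± 0.43 (SE; adjusted p = 3.47e-04, Fisher's exact test), and the edgeR log2 fold change was 2.09 (adjusted p = 0.0152), a call lost with the replicate number as a block (adjusted p = 0.0870), in a fit over 12 libraries (0.0842), with no filter on low counts (0.640) and without sorted library 1 (0.762) or unsorted library 2 (0.117). The Fisher call rested on the first library and on the pooled background. The log2 odds ratio was 0.73 with the second library alone, where it had too few insertions to be tested, and 1.80 (adjusted p = 0.00565, Fisher's exact test) against the unsorted repressor libraries only. The partner Pcgf1 had 0 sorted insertions for 16 in the background, and Bcorl1, a paralogue of Bcor, had 0 for 114, at least 1.39-fold lower than its background share when 3 counts are taken as the floor. That floor is smaller than the median shift of well-covered genes in this screen (log2 ratio -1.13), so a loss particular to Bcorl1 is not shown.

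Pcgf6, the PCGF protein of the PRC1.6 complex, had the highest log2 odds ratio of the members in the repressor screen. It received 46 and 24 sorted repressor insertions against 6 and 14 unsorted ones, with 43 in the background. These are 20.7 and 15.8 per 10000 after sorting, whereas no unsorted library exceeded 0.791. The log2 odds ratio was 5.48 ± 0.28 (SE; adjusted p = 5.98e-70, Fisher's exact test) and the edgeR log2 fold change 5.31 (adjusted p = 2.21e-46). L3mbtl2, a malignant brain tumour (MBT) domain protein of the same complex, had 7 and 3 sorted insertions, 9 and 14 unsorted ones and 41 in the background. At 3.14 and 1.97 per 10000, both sorted libraries lay above the highest unsorted value of 0.791. Its log2 odds ratio was 2.73 ± 0.51 (SE; adjusted p = 1.34e-04, Fisher's exact test), and the edgeR log2 fold change was 2.31 (adjusted p = 0.0310). That edgeR call was lost without sorted library 1, sorted library 2 or unsorted library 1 (adjusted p = 0.545, 0.0621 and 0.159), with the replicate number as a block (0.144), and in 4 further settings (0.0539 to 0.639). With the second sorted library alone the log2 odds ratio was 2.3 (adjusted p = 0.102), and against the unsorted repressor libraries only it was 2.03 (adjusted p = 0.00937, Fisher's exact test), neither of them a call.

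Of the other PRC1.6 subunits, the MAX-binding protein Mga was well covered and not enriched. It had 13 and 8 sorted insertions for 380 in the background (log2 odds ratio 0.59 ± 0.32, SE; adjusted p = 0.338, Fisher's exact test), and at 5.84 and 5.26 per 10000 both sorted libraries lay above the unsorted maximum of 3.96. E2f6, an E2F without an activation domain, had 3 and 1 sorted insertions for 20 in the background (2.45 ± 0.79, SE; adjusted p = 0.0834, Fisher's exact test). With insertions restricted to 50 kb from the exon, the 4 sorted insertions at E2f6 stayed and the background fell to 2, which gave a log2 odds ratio of 5.49 ± 1.25 (SE) and an adjusted p of 3.61e-04 by Fisher's exact test.

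Rybp, which binds the RING subunit in place of a CBX protein, was the member with the most unsorted insertions. It received 82 and 52 in the sorted repressor libraries, 110 and 92 in the unsorted pair and 522 over the background. The sorted values of 36.8 and 34.2 per 10000 lay above the unsorted range of 3.95 to 6.31. The log2 odds ratio was 2.81 ± 0.14 (SE; adjusted p = 4.86e-59, Fisher's exact test) and the edgeR log2 fold change 2.93 (adjusted p = 1.27e-28). Its paralogue Yaf2 had 1 and 1 sorted insertions but only 3 in the background, and with fewer than 3 sorted insertions it was not tested. The remaining variant PCGF genes, Pcgf3 and Pcgf5, had 0 sorted insertions for 8 and for 38 in the background, and Auts2, which joins PCGF3 and PCGF5 complexes, had 1 and 1 for 98.

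**Figure D3:**
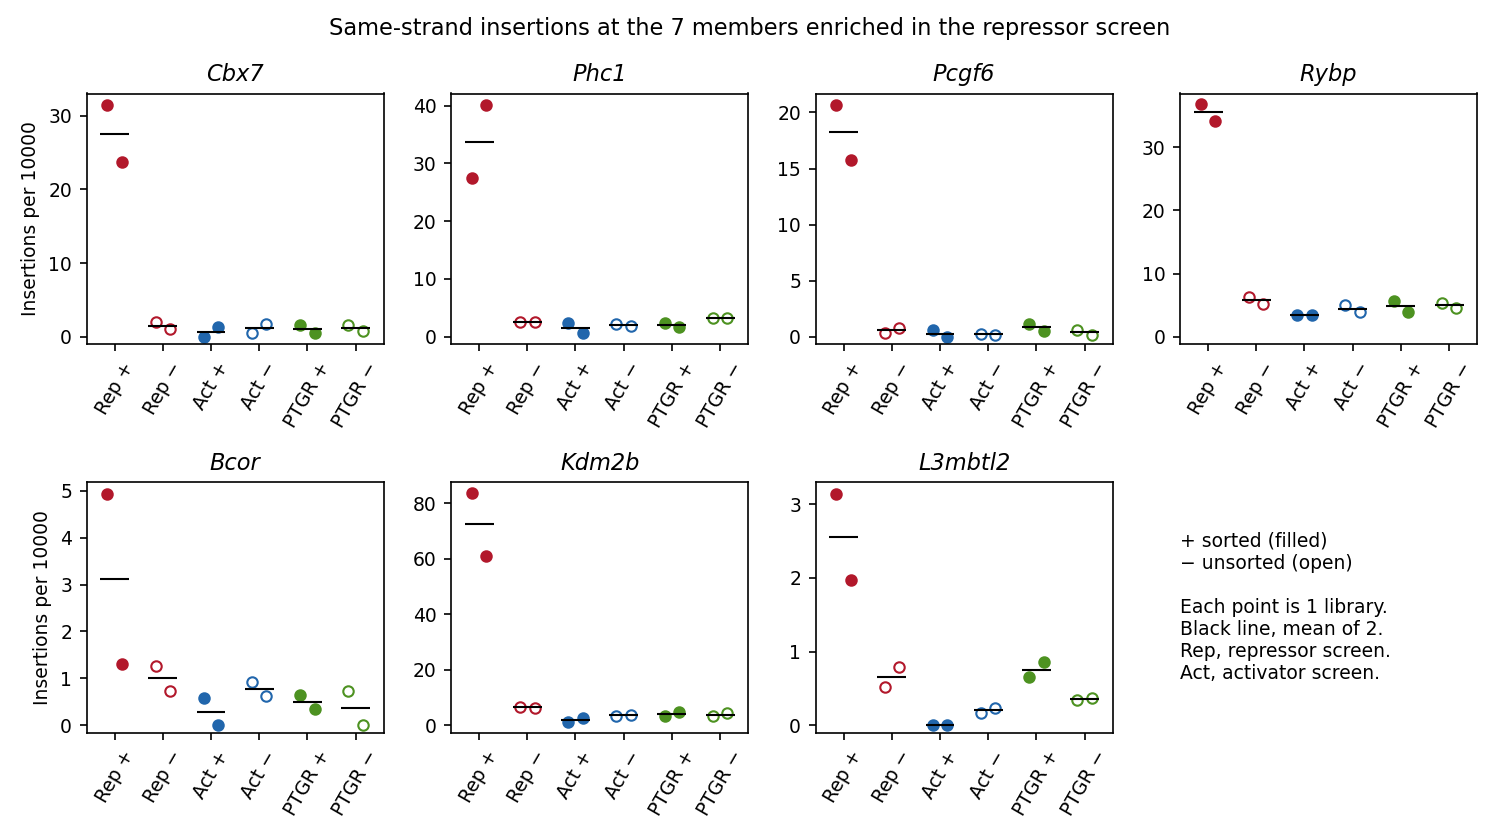
Insertions per 10000 (y axis) at the 7 enriched members in the sorted (+, filled) and unsorted (−, open) libraries of the repressor (Rep), activator (Act) and PTGR screens, 1 point per library with a line at the mean of 2. Both sorted repressor points lie above all others at each gene; at Bcor the second of them, at 1.32, lies just above the highest unsorted value of 1.26.

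Because the sorted repressor libraries shared positions, each enriched gene was also counted by distinct position. The 7 genes had 734 sorted insertions at 654 distinct positions, of which 80 were seen in both libraries. All 7 stayed enriched with each position counted once and with shared positions left out of both libraries. The smallest log2 odds ratio among the 7 was then that of Bcor, at 2.3 (adjusted p = 9.68e-05) and 2.50 (adjusted p = 2.17e-05, Fisher's exact test). The edgeR tests were not repeated in this way. They treat the 2 sorted repressor libraries as separate, so the spread between them may be too small.

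Neither RING gene was enriched. Rnf2, the main E3 ligase subunit in these cells, had 2 and 0 sorted repressor insertions for 229 in the background (log2 odds ratio -2.07 ± 1.02, SE), 8.39 being expected at the background share. It was low in the activator screen as well, with 0 and 1 sorted insertions (-2.85 ± 1.45, SE). Ring1 had no insertion in any unsorted library and could not be assessed. In all, 19 of the 36 members had an expected count below 3 in the sorted repressor pool, and 3 of these 19 (Pcgf6, Bcor and L3mbtl2) were enriched.

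PRC2 gave no enriched gene in the repressor screen, although several of its genes were well covered. Low values there have to be set against the lower share of most genes after this sort. The 7 PRC2 genes with at least 100 unsorted insertions had 18 sorted insertions for 1725 in the background, a log2 ratio of shares of -1.81, against -1.22 over all 2907 genes so covered and not enriched. This difference was not tested as a group. Of the core subunits, the zinc-finger scaffold Suz12 had 1 and 1 sorted insertions for 294 in the background (log2 odds ratio -2.43 ± 1.02, SE) and the H3K27me3 reader Eed had 0 and 2 for 124 (-1.18 ± 1.03, SE). The histone-binding subunit Rbbp7 had 0 for 160, at least 1.96-fold lower than its background share, and Rbbp4 had 0 for 21. The catalytic subunits were thinly covered, with 2 and 0 sorted insertions for 39 in the background at Ezh1 and 1 and 0 for 25 at Ezh2.

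Among the accessory subunits, Jarid2, a DNA-binding cofactor, had 6 and 2 sorted repressor insertions for 425 in the background (log2 odds ratio -0.96 ± 0.51, SE). Aebp2 had 2 and 0 for 193 (-1.82 ± 1.03, SE), Phf19 1 and 1 for 110 (-1.01 ± 1.03, SE) and Phf1 0 for 1. Mtf2, a Polycomb-like protein that binds CpG-rich DNA, had 0 and 2 sorted insertions against 73 and 76 in the unsorted pair and 419 in the background, where 15.4 would be expected at the background share. It was the single member called lower by edgeR (log2 fold change -2.66, adjusted p = 0.0249; the median over all 7688 genes tested was -0.99), where 89 genes (1.16%) were lower and 198 (2.58%) higher. Mtf2 was also low in the activator screen, with 0 and 3 sorted insertions (log2 odds ratio -2.13 ± 0.84, SE) and an edgeR log2 fold change of -2.11 (adjusted p = 0.280). Its repressor effect was not shown to differ from its activator effect (log2 difference -0.59, unadjusted p = 0.673, edgeR). In the PTGR screen it had 19 and 15 sorted insertions (-0.53 ± 0.26, SE). The 7 members that edgeR called higher of 25 tested were the 7 of the Fisher test. The median edgeR log2 fold change over the 25 members was -0.58, with -0.99 over all genes tested. In the activator screen these medians were -0.46 over 23 members and -0.73 over all genes. The Mtf2 call was lost with DESeq2 (adjusted p = 0.319) and without any 1 of the 4 libraries, the adjusted p then ranging from 0.0697 to 0.545.

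The position of the insertions differed between sorted and background pools at several enriched genes. At Kdm2b, exon 2, which retains 99.2% of the coding sequence, received 136 and 78 sorted insertions of 186 and 93. Together these are 76.7% (95% Wilson interval 71.4 to 81.3) of the sorted insertions against 48.3% (43.8 to 52.8) of the background. Exon 12 and later exons took 50 and 15 sorted insertions, 23.3% (18.7 to 28.6) against 42.6% (38.2 to 47.1) of the background. Most of these were at exon 12, which leaves 60.1% of the coding sequence downstream. These are shares within the gene, and the late exons were not depleted by the sort. Exon 12 and later exons held 65 of the 37470 sorted repressor insertions and 200 of the 1022126 background ones, a larger part after sorting. Exons 3 to 11 took 43 background insertions and 0 sorted ones, which allows a share of up to 1.36% (upper Wilson bound). At the background share few sorted insertions would be expected there, so the 0 is not shown to be a shortage. This split of the exons was not set in advance. The Wilson intervals, like all intervals and floors of counts here, cover counting error only.

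At Phc1, 2 acceptors carry the number exon 2, in annotated transcripts of 15 and 14 exons. Use as alternatives is not shown. The upstream acceptor, with the whole coding sequence downstream, took 43 and 46 sorted insertions, 73.0% (64.5 to 80.0) of the sorted against 93.9% (90.3 to 96.2) of the background insertions. In number these are 89 of 37470 sorted and 247 of 1022126 background insertions, so this acceptor also held a larger part of all insertions after sorting. The downstream acceptor, which keeps 96.2% of the coding sequence, took 15 and 10 sorted insertions but 6 in the whole background, 20.5% (14.3 to 28.5) against 2.28% (1.05 to 4.89). In all, 35.2% of sorted Phc1 insertions lay upstream of the annotated gene, against 78.3% of background insertions, and the median distance to the assigned exon was 1866 bp against 6883 bp.

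At Rybp most insertions lay far upstream of the annotated gene, 97.0% of the sorted and 98.3% of the background insertions, with medians of 91644 and 98614 bp from exon 2. Beyond 120 kb, a limit chosen after the distances were seen, lay 2 of 82 and 0 of 52 sorted repressor insertions. The unsorted repressor libraries had 39 of 110 and 30 of 92 there, and the background 223 of 522 (42.7%, Wilson interval 38.5 to 47.0). The sorted activator and PTGR pools had 6 of 11 and 30 of 58 beyond 120 kb. A share as low as that of the sorted repressor libraries (1.49%, 0.410 to 5.28) was seen in no other pool. The unsorted repressor libraries, at 35.5% and 32.6%, were also below the other unsorted libraries, at 44.8% to 50.0%. These are shares within the gene, so they do not tell fewer distant insertions from more near ones. Within 50 kb, Rybp had 16 and 16 sorted insertions for 69 in the background and a log2 odds ratio of 3.38 ± 0.31 (SE).

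At the remaining enriched genes a single exon 2 dominated in both pools. It took 92.5% of sorted and 91.3% of background insertions at Cbx7, 95.7% and 93.0% at Pcgf6, 84.6% and 95.1% at Bcor and 100% (10 of 10) and 95.1% at L3mbtl2. Fusion at these exons keeps 90.8% of the coding sequence of Cbx7, 65.2% of Pcgf6, all of that of Bcor and 98.9% of L3mbtl2. The median distance to the assigned exon was shorter in the sorted than in the background pool at each of the 7 genes, for example 3413 against 5120 bp at Cbx7 and 2991 against 4406 bp at Kdm2b. The cassette was delivered in all 3 reading frames and the libraries do not tell them apart.

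**Figure D4:**
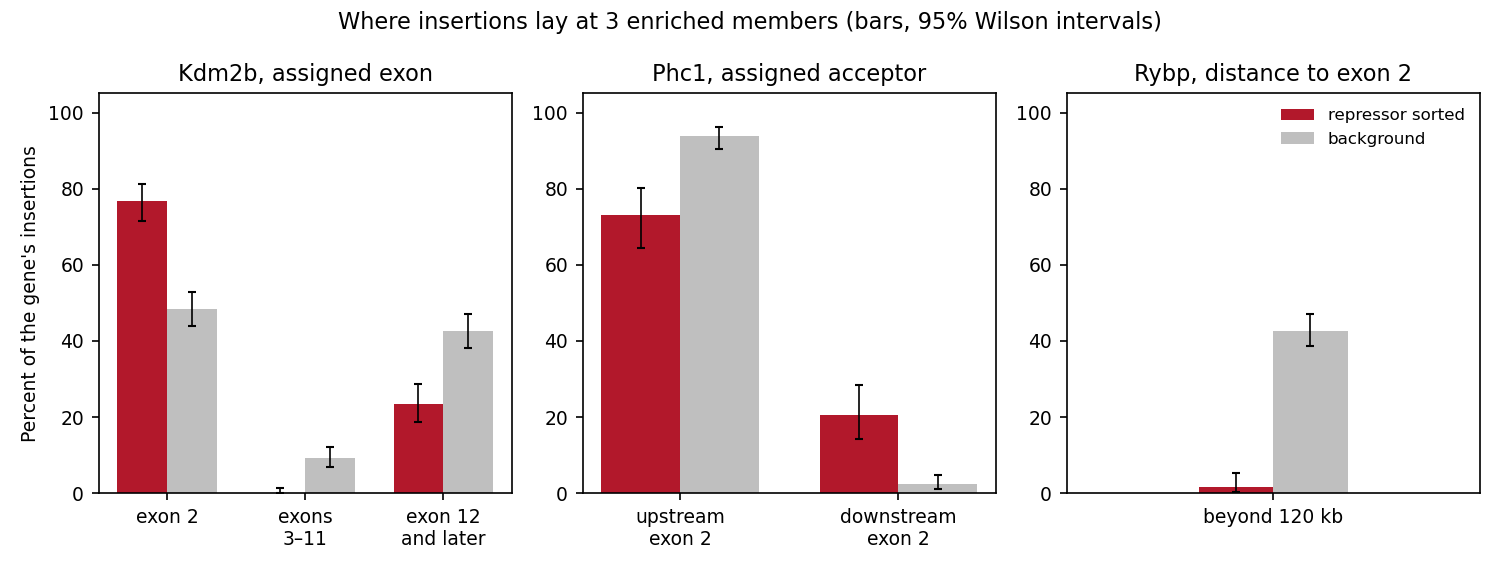
Share of each gene's insertions (y axis, percent) by assigned exon at Kdm2b, by assigned acceptor at Phc1, and beyond 120 kb of exon 2 at Rybp, for the sorted repressor pool (red) and the background (grey), with 95% Wilson intervals. Sorted insertions fell on Kdm2b exon 2 in 76.7% against 48.3%, on the downstream Phc1 exon in 20.5% against 2.28%, and beyond 120 kb at Rybp in 1.49% against 42.7%.

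Nearly all sorted insertions at the enriched genes were in the orientation that yields a fusion. These genes were called from an excess of same-strand insertions in the same libraries, so this share is not separate evidence for the calls. Over the 7 genes, the sorted repressor libraries held 734 insertions on the strand of the gene and 9 on the reverse strand. Cbx7, Bcor and L3mbtl2 had 0 reversed ones, Pcgf6 and Kdm2b 1 each, Phc1 2 and Rybp 5. At Kdm2b the share on the gene's strand was 99.6% (Wilson interval 98.0 to 99.9) after sorting and 56.4% (53.0 to 59.7) in the background. No member was enriched for reversed insertions in the repressor or PTGR screen, where 5.61% and 0.5% of genes with at least 3 reversed insertions were.

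In the activator screen, where 3.14% of such genes were enriched for reversed insertions, the only member was Scmh1. It had 71 and 271 reversed insertions in the sorted activator libraries against 5 and 2 on its own strand, and 189 reversed ones in the background (log2 odds ratio 5.96 ± 0.13, SE). Of these 342 positions, 338 are at the same time same-strand insertions of Foxo6, a neighbouring forkhead transcription factor gene, which had 71 and 267 sorted activator insertions for 168 in the background (log2 odds ratio 6.02 ± 0.14, SE). The reversed Scmh1 insertions and the same-strand Foxo6 insertions are thus largely the same positions. In the repressor and PTGR screens Scmh1 had 4 and 21 reversed sorted insertions.

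**Figure D5:**
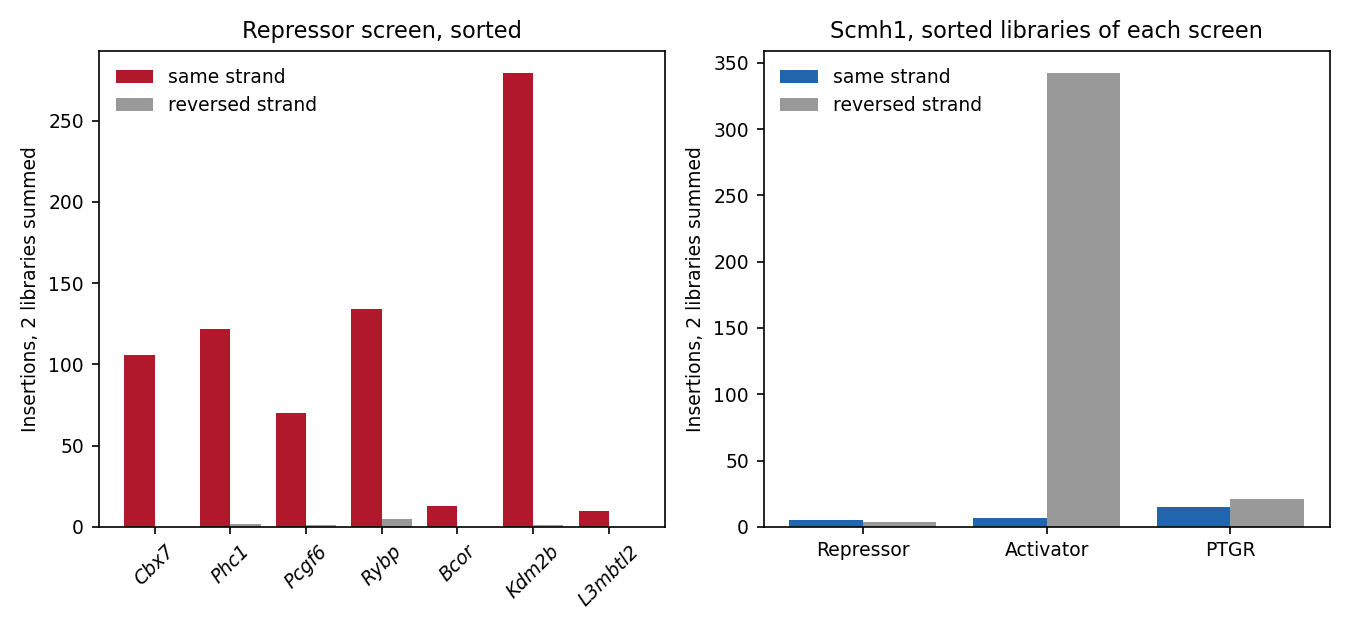
Sorted insertions on the strand of the gene and on the reverse strand (y axis, sum of 2 libraries) at the 7 enriched members in the repressor screen (left) and at Scmh1 in each screen (right). The 7 genes total 734 same-strand and 9 reversed insertions, while Scmh1 has 342 reversed and 7 same-strand insertions in the activator screen.

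The 7 genes were not enriched by the other sorts. In the sorted activator libraries, Kdm2b had 2 and 4 insertions (log2 odds ratio -1.30 ± 0.59, SE), Rybp 6 and 5 (-0.58 ± 0.44, SE), Phc1 4 and 1 (-0.72 ± 0.65, SE), Cbx7 0 and 2, Pcgf6 1 and 0, Bcor 1 and 0 and L3mbtl2 0 and 0. In the sorted PTGR libraries, which were deeper, Kdm2b had 21 and 27 (-0.20 ± 0.22, SE), Rybp 35 and 23 (-0.07 ± 0.20, SE), Phc1 15 and 10 (-0.30 ± 0.30, SE), Cbx7 10 and 3 (-0.31 ± 0.42, SE), Pcgf6 7 and 3 (0.99 ± 0.51, SE), Bcor 4 and 2 and L3mbtl2 4 and 5. The screens share the 6 background libraries, so their odds ratios are not independent of each other.

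The difference between screens was tested with each screen's own unsorted libraries, as edgeR contrasts over all 12 libraries. The sorted effect was larger in the repressor than in the activator screen at 5 of 31 members tested, where 186 of 12809 genes (1.45%) differed in either direction. The log2 difference was 5.40 at Cbx7, 4.37 at Phc1, 4.79 at Kdm2b, 3.31 at Rybp and 4.75 at Pcgf6, with adjusted p from 5.68e-15 to 0.0233 (edgeR). With the replicate number as a block, Pcgf6 was no longer called (adjusted p = 0.0516, edgeR). Against the PTGR screen the same 5 genes differed, where 177 genes (1.38%) did, by 4.55 at Cbx7, 4.31 at Phc1, 3.44 at Kdm2b, 2.73 at Rybp and 4.35 at Pcgf6. For Bcor and L3mbtl2 the repressor effect was not shown to differ from either screen (adjusted p from 0.410 to 0.940, edgeR). No member differed between the activator and PTGR screens by edgeR, where 0.71% of genes did and 2 of 31 members had an unadjusted p below 0.05.

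A few members stood near the thresholds outside the repressor screen. In the PTGR screen Bcorl1 had 12 and 19 sorted insertions, 38 and 11 unsorted ones and 114 in the background (log2 odds ratio 1.22 ± 0.29, SE; adjusted p = 0.0102, Fisher's exact test), short of the threshold of 0.001. Against the unsorted PTGR libraries alone the ratio was 0.61 (adjusted p = 0.681). Ezh2 had 5 and 3 sorted insertions for 25 in the background (1.45 ± 0.59, SE; adjusted p = 0.310), Pcgf3 2 and 2 for 8 (2.10 ± 0.88, SE; adjusted p = 0.381) and Rnf2 20 and 20 for 229 (0.58 ± 0.25, SE; adjusted p = 0.296, Fisher's exact test). In the activator screen Phc3 had 7 and 3 sorted insertions for 172 in the background (0.89 ± 0.47, SE; adjusted p = 0.536) and Pcgf5 1 and 2 for 38 (1.33 ± 0.87, SE; adjusted p = 0.900, Fisher's exact test). Of 23 members tested by edgeR among the activator libraries 0 were called, with 2 at an unadjusted p below 0.05, and of 28 tested among the PTGR libraries 0 were called, with 0 at that level. Over all genes edgeR called 1.45% higher and 0.0125% lower in the activator screen and 0.33% higher and 0.0% lower in the PTGR screen. DESeq2 called 0 members in each screen, and its share over all genes is not given.

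Coverage before sorting set what could be seen. The members had a median of 64.5 background insertions, with 16 members at 100 or more and 6 below 10. The 6 were Ring1 and Cbx6 (0), Phf1 (1), Yaf2 (3), Bmi1 (4) and Pcgf3 (8). Ring1 spans 3889 bp with a first intron of 91 bp in its longest coding transcript, and Cbx6 has a first intron of 184 bp. A short first intron did not always go with few insertions, since that of Cbx2 is 77 bp and Cbx2 had 40. Nor did a longer one always go with many, since Pcgf3 has 10620 bp and Bmi1 4323 bp. The relation to intron length was not tested. At the other end Rybp had 522, Kdm2b 470, Jarid2 425 and Mtf2 419. A long gene was not always well covered, since Auts2 spans 1106012 bp and had 98 insertions.

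Among 37 other genes of Polycomb-linked proteins, 2 were enriched in the repressor screen, 1 in the activator screen and 0 in the PTGR screen, with 11, 10 and 23 of the 37 tested. Over all genes listed the shares were 0.941%, 0.647% and 0.304%. In the repressor screen these were Cbx3 and Max, both found in PRC1.6. Cbx3, which encodes the heterochromatin protein HP1γ, had 34 and 49 sorted insertions for 37 in the background (log2 odds ratio 5.94 ± 0.29, SE; adjusted p = 4.82e-89), and Max, the partner of MGA and of MYC, had 35 and 12 for 254 (2.34 ± 0.23, SE; adjusted p = 4.46e-16, Fisher's exact test). Samd1, a CpG island-binding protein, had 3 and 2 for 13 (3.39 ± 0.76, SE; adjusted p = 0.00368, Fisher's exact test). It was not enriched by the Fisher threshold but was called higher by edgeR (log2 fold change 3.42, adjusted p = 0.0415), as were Cbx3 and Max. In the activator screen Asxl2, a subunit of the H2A deubiquitinase PR-DUB, had 10 and 16 sorted insertions for 44 in the background (4.23 ± 0.36, SE; adjusted p = 4.43e-20, Fisher's exact test). It had 1 sorted repressor insertion and 3 sorted PTGR insertions.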

How the data were processed

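The authors trimmed reads with Trim Galore 0.6.0, aligned them to mm10 with Bowtie2, used SAMtools 1.9 to drop low-quality and duplicate alignments, and gave each insertion the closest downstream non-first exon of a protein-coding transcript (GENCODE). They deposited, per library, lists of insertions on the same and on the reversed strand, whose exon number and distance in bp are neither normalized nor scaled, and per screen a table of sorted and background insertion counts per gene. The fold changes and p-values in those tables hold the authors' comparisons and were not used.

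Here each position was counted once per library at a distance of at most 200 kb. The deposited repressor unsorted lists give every position as repeated lines (50.0% of lines), and 12.8% of lines of PTGR sorted library 2 are repeats. The deposited sorted counts equal these counts for 36 of 36 members in the repressor and activator tables and 18 of 36 in the PTGR table, where repeats had been counted. The total per library was 14705 to 60980 sorted and 54088 to 233799 unsorted insertions.

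The test was that of the authors' methods, a one-tailed Fisher's exact test of both sorted libraries against all 6 unsorted libraries with Benjamini-Hochberg adjustment over all genes with at least 3 sorted insertions. It treats insertions as independent. It was run in Python 3.11.15 with scipy 1.17.1. Per-screen tests between 2 sorted and 2 unsorted libraries used edgeR 4.0.16 in R 4.3.3 (TMM, quasi-likelihood, at least 10 insertions over 4 libraries, adjusted p below 0.05, two-sided), with DESeq2 1.42.0 as an alternative. Per the study, the screens were run in biological replicates from independent transductions, and unsorted cells were taken from each selected pool before the rest was sorted. For activator and for PTGR, each sorted library had more positions in common with the unsorted library of its own number than with the other (1133 against 514 and 3461 against 260, and 15640 against 295 and 5381 against 1423). Both sorted repressor libraries had more in common with unsorted library 2 (2650 against 2196 and 1549 against 947). Both tests were checked on simulated counts with known changes.

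All 37 members are accounted for. Sorted counts per library, with statistics for most, are given in the screen concerned for members called by any test, enriched for reversed insertions or with the most unsorted insertions. The same holds for members with at least 3 sorted insertions and, in either replicate alone, an odds ratio at or above the enrichment limit. Members with the fewest unsorted insertions are given by their background count. The members, the lists and these rules were chosen with earlier results of these data known. Gene positions, exons and coding lengths are from GENCODE vM21 on GRCm38, the same assembly as mm10, and sequences from the RefSeq GRCm38.p6 genome. Of the other Polycomb-linked genes looked up, 37 are in the tables and Ezhip is not among them. Alternatives covered the background, thresholds, distance, repeated lines, normalization, the replicate block and each library left out.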

Additional observations from a re-analysis of the deposited data

Results flagged for a closer look

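The sorted effect differed between screens at 5 members, by edgeR contrasts of the log2 sorted-to-unsorted ratios over 12 libraries. The repressor effect exceeded the activator effect by 5.40 at Cbx7, 4.37 at Phc1, 4.75 at Pcgf6, 3.31 at Rybp and 4.79 at Kdm2b (log2 differences, 2 libraries per group). It exceeded the PTGR effect by 4.55 at Cbx7, 4.31 at Phc1, 4.35 at Pcgf6, 2.73 at Rybp and 3.44 at Kdm2b. Both sorted repressor libraries lay above all other libraries at each of the 5 genes. At Pcgf6 the difference from the activator screen had an adjusted p of 0.0233 and was no longer called when any of 5 libraries was left out in turn (activator sorted 1 or 2, activator unsorted 1, repressor sorted 1, repressor unsorted 1), the adjusted p then ranging from 0.0623 to 0.640 (edgeR). Blocking on replicate number gave 0.0516 (edgeR). At Cbx7 and Pcgf6 the difference from the PTGR screen was not called without PTGR unsorted library 1 (adjusted p = 0.0990 and 0.572, edgeR).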

How the results depend on the processing

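The Fisher call of 7 members in the repressor screen ranged from 5 to 7 with a library left out and from 5 to 7 over the other settings. Cbx7, Phc1, Pcgf6, Rybp and Kdm2b were enriched under all of them, and Bcor and L3mbtl2 under some, as given above. With every gene that had at least 1 sorted insertion tested, Bcor had an adjusted p of 0.00103, and without sorted positions also seen unsorted, an alternative chosen after seeing the data, 0.00443. Within 50 kb it had 0.00667 and E2f6 was enriched instead. The activator count stayed 0 under all settings, and the PTGR count became 1 (Bcorl1) at an adjusted p below 0.05. The edgeR call of 8 members in the repressor screen fell to 4 without a filter on low counts, losing Cbx7, Bcor, L3mbtl2 and Mtf2, and ranged from 5 to 6 with a library left out. In the activator screen it was 0, but 1 (Mtf2) in a fit over all 12 libraries, and 0 to 1 with a library left out (1 without sorted library 2). The count of members that differed between the repressor and PTGR screens ranged from 3 to 5 with a library left out, and that between the activator and PTGR screens from 0 to 1 (Rnf2, without PTGR unsorted library 1). Within 50 kb, PRC2 took 14.2 insertions per 10000 in the activator, 6.04 in the repressor and 21.0 in the PTGR sorted libraries, canonical PRC1 4.43 in the activator and 82.9 in the repressor, and variant PRC1 8.85 in the activator and 19.0 in the PTGR libraries. The causes of these changes were not tested.

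Same-numbered sorted and unsorted libraries had the most positions in common for activator and PTGR but not for repressor, and the correlations of their deviations were 0.053, 0.256 and 0.012 in these screens. With the replicate number as a block, edgeR called 6 members in the repressor screen, without Bcor (adjusted p = 0.0870) and L3mbtl2 (adjusted p = 0.144), and 4 members, without Pcgf6 (adjusted p = 0.0516), differed between the repressor and activator screens. The block changed no other member call. At 14705 to 22266 insertions per sorted activator or repressor library, 19 of 36 members had under 3 sorted insertions to be expected in each of these screens.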
